A study of Homo sapiens with 12 samples.

Results

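These results describe what knockdown of RFX7 did to RNA levels in unstressed HCT116 cells, an established human colorectal carcinoma line. Cells had received an siRNA against RFX7 (siRFX7) or a control siRNA (siControl) and were kept for 24 h in DMSO, the solvent of the drug used in the other arm of the study. In that other arm, the same pair of siRNAs was combined with 10 µM Nutlin-3a for 24 h, a compound that blocks binding of MDM2 to p53. Each of the 4 groups had 3 replicate libraries, made from 500 ng of total RNA with poly(A) selection. The sources used here give neither the siRNA sequences nor how many different siRNAs were aimed at RFX7, and they do not say whether replicates were separate cultures, so p-values measure only the spread between these samples. The genes described are the protein-coding genes in the authors' deposited DMSO table (siRFX7 relative to siControl) whose mean normalized count over the 12 libraries was 50 or more. They were 11517 of 13722 genes at that level, of 20026 genes listed in that table and of 23195 genes listed in any table of the series. Just inside the limit stood TECTA at 50.03, ACP7 at 50.04 and C7orf31 at 50.07, and just outside it RABGEF1 at 49.97, ANG at 49.98 and UTS2 at 49.98.

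Log2 fold changes, their standard errors (SE) and adjusted p-values below are those of the authors' deposited tables, made with DESeq2. Values after ± are SE. A positive value means a higher level with siRFX7, and a gene is said to have risen or fallen when its deposited adjusted p was below 0.05. The group means quoted are normalized counts, solved from the deposited mean counts and fold changes of all 4 groups. Single-library values were not used here, so no range over replicates is given and overlap of replicates could not be read. Levels are compared only within a gene, since the counts are not per length.

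RFX7 belongs to the regulatory factor X family, transcription factors with a winged-helix domain that bind X-box sequences, and it is known to act downstream of p53 on a set of growth-restraining genes. ATF4, which recurs in the results, is a basic leucine zipper factor whose mRNA is translated preferentially when the kinases of the integrated stress response phosphorylate eIF2α. With C/EBP partners it binds C/EBP-ATF response elements and switches on amino acid synthesis, amino acid import, tRNA charging and regulators such as DDIT3 (CHOP), CHAC1 and TRIB3. p53, the target of the Nutlin-3a arm, activates CDKN1A, MDM2 and many genes of arrest, apoptosis and repair.

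The strongest falls included many genes known as ATF4 targets, so the promoters were searched for the C/EBP-ATF response element, written TGATGNAA, and for its TGATGCAA form, on both strands. RefSeq promoters (GRCh38.p14, 250 bases before to 50 after the transcript start) were matched for 9429 of the 11517 genes. Windows of 30 bases are shown for the 8 largest falls that held a match among the ATF4-linked lists described below, with the match in capitals, so that the bases around it can be read. The capitals follow from the search pattern, so their likeness is no finding. ATF3 of the same lists also held a match and was not called. Sequences run 5′ to 3′ on the strand named.
CHAC1, chr15:40953251-40953280, minus strand: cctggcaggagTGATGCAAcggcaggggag
ASNS, chr7:97872458-97872487, minus strand: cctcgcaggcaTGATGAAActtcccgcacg
JDP2, chr14:75427995-75428024, plus strand: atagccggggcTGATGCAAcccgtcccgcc
CARS, chr11:3057407-3057436, plus strand: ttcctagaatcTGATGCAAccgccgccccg
SLC7A1, chr13:29595663-29595692, minus strand: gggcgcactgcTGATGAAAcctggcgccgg
SLC1A4, chr2:64989381-64989410, minus strand: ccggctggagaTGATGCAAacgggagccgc
AARS, chr16:70289675-70289704, plus strand: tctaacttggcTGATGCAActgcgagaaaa
CEBPG, chr19:33374060-33374089, plus strand: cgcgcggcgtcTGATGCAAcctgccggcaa

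TGATGCAA is one form of TGATGNAA, so matches of the first are counted in the second. Among all 35116 promoters, 3.62% held TGATGNAA and 0.866% held TGATGCAA. Promoters of all genes that fell held TGATGNAA in 83 of 3290 cases (2.52%), below that 3.62%. The share was 1.72% for genes not called and 1.52% for genes that rose. TGATGCAA was in 33 of the 3290 (exact 95% binomial interval 0.691% to 1.41%, counting error only), against 0.361% and 0.467%. Of 424 promoters of 270 genes that fell by more than 0.58 on the log2 scale, 25 held TGATGNAA (5.90%). TGATGCAA was in 13 of these 424 (3.07%, interval 1.64% to 5.19%). Promoters of 1 gene were counted separately and are not independent, and the 13 came from fewer than 13 genes. Most of these genes are on the ATF4-linked lists described next, so these shares and those of the lists rest largely on the same genes. All 13 promoters belonged to genes whose fall differed from that in Nutlin-3a by the test described at the end. They were 8.33% of the 156 promoters of such genes, while 0 of 268 promoters of genes with no called difference held it, which allows a share of up to 1.37% by the exact interval. In the 4 gene lists linked to ATF4 described next, 15 of 62 genes with a matched promoter held TGATGCAA, and all 15 fell, with a median log2 fold change of -0.65. The other 47 genes of those lists had 30 that fell and 9 that rose, with a median of -0.43. These lists hold many known ATF4 targets and were written with earlier results of these data known. The 15 therefore give no independent support to a link of the sequence with the falls. Outside the lists, 55 genes held TGATGCAA, of which 16 fell and 11 rose, with a median of -0.04, close to the median of -0.03 for the 9312 genes without it. A match is a description of the sequence, not of binding.

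The siRNA target was checked first. RFX7 (chromosome 15, 56087280 to 56243266, minus strand, GENCODE 29) had a mean of 944 normalized counts with siControl in DMSO and 185 with siRFX7, a deposited log2 fold change of -2.35 ± 0.10 (DESeq2, adjusted p = 4.05e-128). It was the largest fall among the 11517 genes. In Nutlin-3a the fall was -2.14 ± 0.09, and the difference between the treatments was not called.

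In the authors' deposited table for DMSO, 5811 of all 20026 listed genes passed the threshold (29.0%), 2704 higher with siRFX7 (13.5%) and 3107 lower (15.5%). Among the 11517 genes described here, 4811 passed (41.8%), of which 2134 rose (18.5%) and 2677 fell (23.2%). These shares are the background for the gene groups below, as is the median log2 fold change of -0.03 over all 11517. With fold changes rescaled to equal group totals (26957653 normalized counts with siControl and 25915992 with siRFX7), the split turned to 2727 higher and 1946 lower, that is 58.4% of calls higher in place of 44.4%. Most changes were small. Falls of 1 or more on the log2 scale numbered 64 (0.556%) and such rises 159 (1.38%). With the genes split by mean count into 4 parts of equal size, the share called grew from 35.7% in the lowest part, where the median SE was 0.144, to 45.6% in the highest, with a median SE of 0.061. The lowest had 634 rises and 394 falls and the highest 507 rises and 807 falls.

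**Figure D1:**
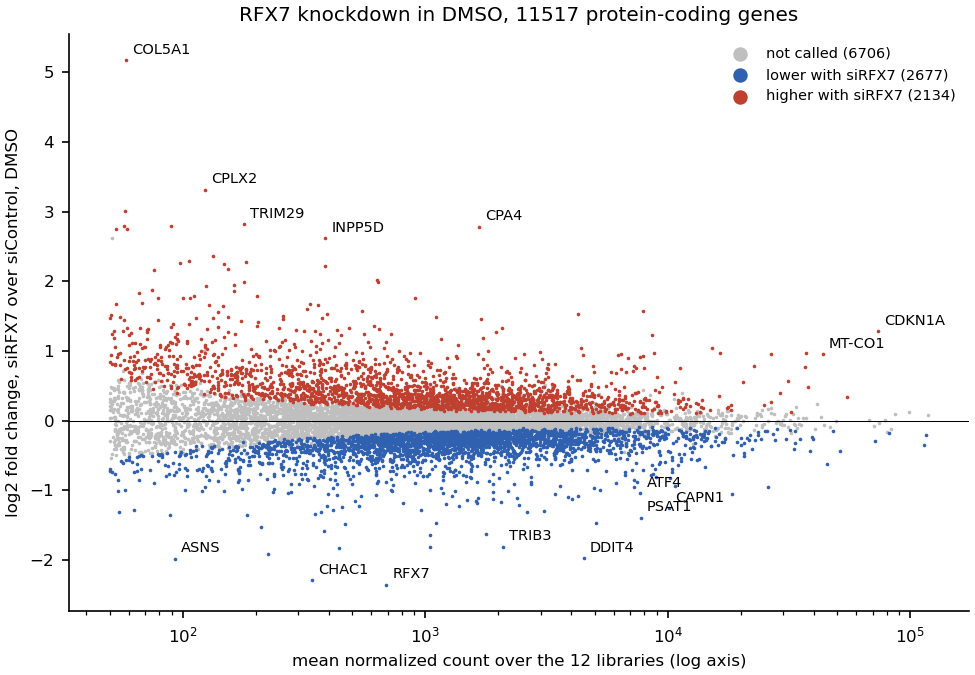
Log2 fold change with siRFX7 in DMSO against the mean normalized count over the 12 libraries (log axis) for the 11517 protein-coding genes, with 2677 lower (blue), 2134 higher (red) and the rest not called (grey). RFX7, CHAC1, ASNS and DDIT4 lie lowest, and COL5A1 and CPLX2 highest, both at low mean counts.

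Epithelial markers of the line were read as a check of identity. Of 18 listed for colon epithelium, 13 were at the level required, of which 5 fell (38.5%), 2 rose and 6 were not called, with a median log2 fold change of -0.14. Detected were the adhesion molecule EPCAM (8665 to 9303 normalized counts from siControl to siRFX7) and the intestinal factor CDX2 (649 to 628), neither of them called. OCLN, a tight junction protein, fell from 844 to 454 (log2 fold change -0.89 ± 0.13), and KRT19, a keratin of simple epithelia, rose from 27288 to 34434 (0.34 ± 0.10). Of 16 markers of leukocytes, fibroblasts, endothelium and muscle, 3 reached the level, and all 3 rose: ACTA2, smooth muscle actin, from 96.1 to 383 (1.99 ± 0.11), DES, desmin, from 55.4 to 173 (1.64 ± 0.19), and COL1A1, a fibrillar collagen chain, from 400.1 to 515 (0.36 ± 0.11). ACTA2 overlaps FAS on the other strand, and FAS itself rose (0.88 ± 0.07). Of the 6 leukocyte markers 0 reached the level, and 3 were listed. The strand setting of the counting is not given in the sources used here, so reads of overlapping genes cannot be told apart. In these bulk samples fewer cells of a type and less RNA per cell cannot be told apart either, and the part of other cells in any result was not tested.

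**Figure D2:**
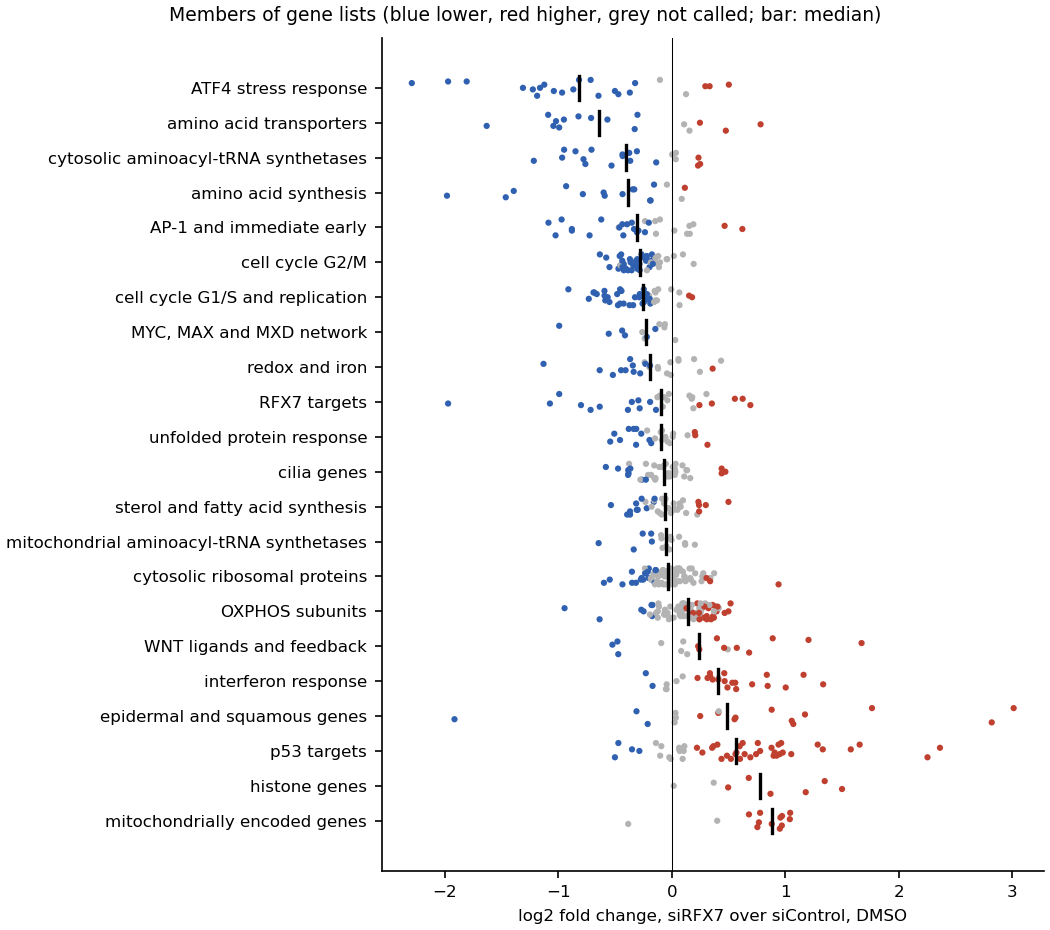
Log2 fold changes with siRFX7 in DMSO for the members of 22 gene lists, 1 point a gene, with the list median as a bar. The lists linked to ATF4 lie mostly below 0, and p53 targets, histone genes and mitochondrially encoded genes mostly above.

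Genes of the ATF4 stress response fell with siRFX7, several of them strongly. Of 25 genes on this list, 23 were at the level required, and 18 fell, 3 rose and 2 were not called, with a median log2 fold change of -0.82 in the authors' deposited table for DMSO and -0.09 in Nutlin-3a. ATF4 itself fell from 14166 to 6895 normalized counts (-1.04 ± 0.08, DESeq2 adjusted p = 1.69e-40). Its partners in C/EBP dimers fell with it, CEBPB from 2564 to 1127 (-1.19 ± 0.10) and CEBPG from 3267 to 1791 (-0.87 ± 0.05). DDIT3, the stress factor CHOP, fell from 725 to 292 (-1.31 ± 0.10), and JDP2, a repressor of AP-1 sites, from 812 to 348 (-1.22 ± 0.10). TRIB3, a pseudokinase that restrains ATF4 and AKT, fell from 4668 to 1335 (-1.81 ± 0.07, adjusted p = 6.49e-138). Among the regulators the falls were thus shared by activators and by a feedback inhibitor. ATF3, another stress-induced factor, was not called (544 to 507), and ATF5 rose from 1183 to 1676 (0.50 ± 0.10), as did EIF2AK4, the kinase GCN2 that senses uncharged tRNA (0.30 ± 0.06). EIF2AK3, the kinase PERK of the endoplasmic reticulum, fell from 557 to 431 (-0.37 ± 0.09).

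CHAC1 (chromosome 15, 40952962 to 40956519, plus strand), an enzyme that degrades glutathione, had the largest fall after RFX7, from 888 to 182 normalized counts (-2.29 ± 0.11, DESeq2 adjusted p = 1.29e-86). DDIT4, an inhibitor of mTORC1 that is also listed as an RFX7 target, fell from 6416 to 1638 (-1.97 ± 0.09). STC2, a secreted stanniocalcin, fell from 3634 to 1625 (-1.16 ± 0.06), GPT2, the mitochondrial alanine aminotransferase, from 3582 to 1645 (-1.12 ± 0.06), and VEGFA, the angiogenic growth factor, from 1636 to 838 (-0.97 ± 0.06). SESN2, a leucine sensor that restrains mTORC1, fell less, from 1263 to 911 (-0.47 ± 0.08), and so did GDF15, a stress cytokine, from 4812 to 3401 (-0.50 ± 0.08). PCK2, UPP1 and FAM129A, among the 12 largest falls, are not on the list. PCK2, mitochondrial phosphoenolpyruvate carboxykinase, fell from 2762 to 784 (-1.82 ± 0.07), the uridine phosphorylase UPP1 from 1174 to 331 (-1.82 ± 0.12) and FAM129A, also called NIBAN1, from 976 to 326 (-1.58 ± 0.12).

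**Figure D3:**
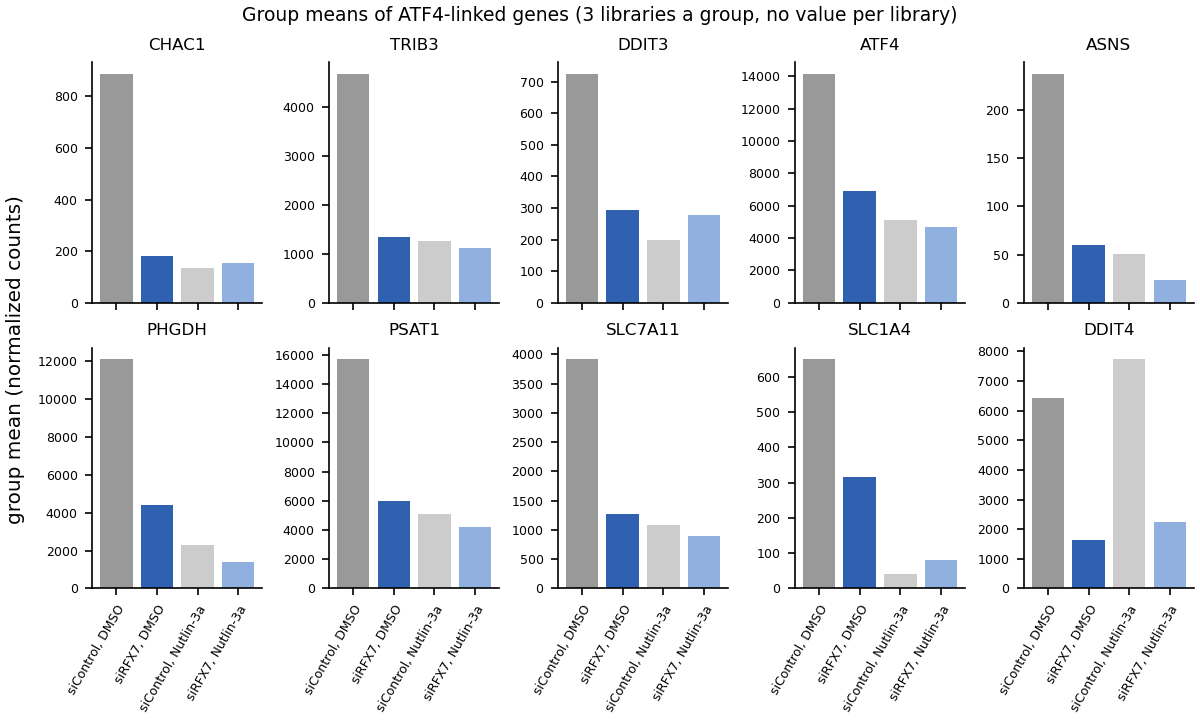
Mean normalized counts of 10 genes in the 4 groups of 3 libraries (bars from 0, solved from the deposited tables, with no error bar because values per library were not used). For CHAC1, TRIB3, DDIT3, ATF4 and the genes of amino acid supply the siControl bar in DMSO is the highest of the 4, while DDIT4 is high with siControl in both treatments.

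Genes of amino acid synthesis fell with siRFX7. Of 18 listed, 16 were at the level required and 13 fell, 1 rose and 2 were not called, with a median log2 fold change of -0.39 in the authors' deposited table. ASNS, asparagine synthetase, fell from 237 to 60.2 normalized counts (-1.98 ± 0.19). The serine pathway enzymes PHGDH, from 12103 to 4392 (-1.46 ± 0.09), and PSAT1, from 15692 to 5979 (-1.39 ± 0.04, DESeq2 adjusted p = 3.35e-247), fell by more than their last enzyme PSPH, from 1901 to 1706 (-0.16 ± 0.06, a call lost at equal totals, adjusted p = 0.19). The mitochondrial folate enzymes MTHFD2, from 18199 to 9549 (-0.93 ± 0.04), and SHMT2, from 9924 to 5766 (-0.78 ± 0.05), fell, while the cytosolic MTHFD1 was not called (6774 to 7199.5). PYCR1, of proline synthesis, fell from 13153 to 8733 (-0.59 ± 0.04). GOT2, mitochondrial aspartate aminotransferase, was the 1 gene of the list that rose, by a small amount (0.12 ± 0.04).

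Amino acid transporters fell as well. Of 18 listed, 16 were at the level required and 11 fell, 3 rose and 2 were not called, with a median deposited log2 fold change of -0.64 in DMSO and 0.04 in the Nutlin-3a arm. SLC7A11, the cystine importer, fell from 3917 to 1265 normalized counts (-1.63 ± 0.11), SLC7A1, the cationic amino acid carrier, from 7009 to 3295 (-1.09 ± 0.09), and SLC1A4, a carrier of serine and alanine, from 650.1 to 316 (-1.04 ± 0.12). The 2 chains of the large neutral amino acid exchanger fell together, SLC7A5 from 43907 to 22725 (-0.95 ± 0.06) and SLC3A2 from 17078 to 9662 (-0.82 ± 0.07). The glycine transporter SLC6A9 fell from 402 to 198 (-1.02 ± 0.15). SLC7A8 rose from 184 to 316 (0.78 ± 0.14), SLC36A1, a lysosomal carrier, by 0.48 ± 0.11, and SLC38A5 by 0.25 ± 0.06.

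The enzymes that charge tRNA with amino acids fell in number in the cytosolic set. Of 20 cytosolic aminoacyl-tRNA synthetases 14 fell, 3 rose and 3 were not called, with a median log2 fold change of -0.40 in the authors' deposited table. CARS fell from 4194 to 1807 normalized counts (-1.22 ± 0.05), WARS from 7558 to 3870.0 (-0.97 ± 0.08), AARS from 13611 to 7054 (-0.95 ± 0.05) and YARS from 12102 to 6723 (-0.85 ± 0.05). VARS (0.25 ± 0.04), HARS (0.24 ± 0.04) and RARS (0.23 ± 0.06) rose. Of 17 mitochondrial synthetases 5 fell, 0 rose and 12 were not called, with a median of -0.05 that turned to 0.01 at equal group totals. MARS (-0.71 ± 0.04) and DDIT3 overlap on opposite strands, and the share of each in the other's reads cannot be told apart.

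Joined, the 4 lists (stress response, synthesis, transporters and cytosolic synthetases) held 75 genes, of which 56 fell (74.7%), 10 rose (13.3%) and 9 were not called, with a median log2 fold change of -0.53, beside 23.2%, 18.5% and -0.03 over all 11517. In Nutlin-3a the authors' deposited table gave the same 75 genes a median of -0.03, with 27 lower and 18 higher, beside 18.5% lower and 21.5% higher over all. The siRFX7 effect was called more negative in DMSO than in Nutlin-3a for 44 of the 75 and more positive for 2, where the difference was called for 11.7% of all 11517. Over all 11517 it was more negative for 753 genes and more positive for 590, the background for such counts below. Levels of the 4 groups show where these differences lay. CHAC1 stood at 888 normalized counts with siControl and 182 with siRFX7 in DMSO, and at 135 and 155 in Nutlin-3a. TRIB3 stood at 4668 normalized counts with siControl and 1335 with siRFX7 in DMSO, and at 1255 and 1107 in Nutlin-3a. For both genes the siControl cells in DMSO were high and the other 3 groups were low. PSAT1 had the same form, at 15692 normalized counts with siControl and 5979 with siRFX7 in DMSO, and at 5097 and 4202 in Nutlin-3a. The comparison of Nutlin-3a with DMSO in siControl cells shares the siControl DMSO libraries with the comparison described here, so its falls and these cannot be set against each other as separate evidence.

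Known RFX7 targets moved unevenly in DMSO. The list was written with earlier accounts of these data known and may rest partly on these libraries. It therefore gives no independent support to a direction. Of 30 genes 28 were at the level required, and 12 fell, 5 rose and 11 were not called, with a median log2 fold change of -0.09 in the authors' deposited table, against -0.52 with 21 lower in Nutlin-3a. DDIT4 fell most. TSPYL2, a nucleosome assembly family protein, fell from 673 to 320.0 normalized counts (-1.07 ± 0.08) and MXD4, a repressive partner of MAX, from 715 to 359.8 (-0.99 ± 0.09). PDCD4, an inhibitor of translation initiation, fell from 885 to 509 (-0.80 ± 0.08), and PNRC1, a nuclear receptor coactivator, from 468 to 285 (-0.72 ± 0.08). The falls of MXD4, TSPYL2, PDCD4 and PNRC1 were all smaller than in Nutlin-3a, where their log2 fold changes were -3.01 ± 0.09, -2.55 ± 0.11, -2.06 ± 0.08 and -2.43 ± 0.08, with each difference called.

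The 5 targets that rose with siRFX7 in DMSO were BTG2, an antiproliferative factor, from 1093 to 1766 normalized counts (0.69 ± 0.07), the autophagy protein TP53INP1 from 528 to 813 (0.62 ± 0.09), PIK3R3, a regulatory chain of PI3 kinase, from 64.4 to 94.6 (0.56 ± 0.19), the phosphatase PTPN14 (0.35 ± 0.14) and the antiproliferative factor TOB1 (0.24 ± 0.05). BTG2 and TP53INP1 are also p53 targets. In Nutlin-3a the authors' deposited table gave BTG2 -0.12 ± 0.06, TP53INP1 -0.50 ± 0.08 and PIK3R3 -1.14 ± 0.18. SESN3, YPEL2 and KLHL24 were not called in DMSO, with -0.11 ± 0.14, -0.07 ± 0.15 and -0.08 ± 0.09, and fell in Nutlin-3a. For 18 of the 28 targets the siRFX7 effect was called higher in DMSO than in Nutlin-3a, and for 0 lower, beside 590 and 753 of all 11517 genes.

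RFX proteins bind the X-box, an imperfect inverted repeat, searched here on both strands as GTTNCC and GGNAAC with 2 bases between them. Of all promoters 0.490% held it, beside 0.578% of promoters of genes that fell and 0.505% of those that rose. In the RFX7 target list 3 of the 42 promoters of 25 genes held it (7.14%, exact 95% interval 1.50% to 19.5%). Promoters of 1 gene were counted separately and are not independent, and the interval covers counting error only. The 3 promoters belonged to 2 targets, whose windows are shown with the match in capitals. The first target fell and the second was not called.
SLC43A2, chr17:1628578-1628607, minus strand: acgggcgaGTTGCCGGGGGAACgcccgaga
ABAT, chr16:8712782-8712811, plus strand: tcccattgGTTGCCTCGGCAACggcgtaat
SLC43A2, an amino acid exporter, fell from 653 to 420.4 normalized counts (-0.63 ± 0.08). ABAT, which breaks down the transmitter GABA, was not called (222 to 275, log2 fold change 0.31 ± 0.13), but was higher at equal totals (adjusted p = 0.027). A fixed form, GTTGCC followed directly by ATGG, in 0.626% of all promoters, was in 0 of 424 promoters of genes that fell by more than 0.58, which allows a share of up to 0.866%. The same search for TCACNCCAC, a sterol response form, found 1.03% of promoters of genes that fell and 1.05% of those that rose, and for a pair of TTTC with 2 bases between them, an interferon response form, 2.58% and 3.07%, beside 1.13% and 3.57% of all promoters.

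Among the RFX family and its partners, 7 were at the level required, RFX7 among them. RFX2 fell from 452 to 310.1 normalized counts (-0.54 ± 0.10), RFX5, the factor of MHC class II promoters and a listed RFX7 target, fell from 1118 to 919 (-0.28 ± 0.08), and its partner RFXANK rose (0.32 ± 0.10). RFX1 and RFX3, regulators of ciliary genes, were not called, at 721 to 635 and 378 to 365. Of 39 ciliary genes at the level required, 8 fell, 3 rose and 28 were not called, with a median log2 fold change of -0.07, in the authors' deposited table. KIFAP3, an accessory chain of the kinesin motor of cilia, fell from 546 to 365 (-0.58 ± 0.09). PCM1, which builds centriolar satellites and is not on the list, was among the 64 large falls, from 3785 to 1522 (-1.31 ± 0.08).

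Many of the strong falls were called in Nutlin-3a too. Of the 64 genes that fell by 1 or more, 51 also fell in Nutlin-3a, and the difference between the treatments was called for 37 and not for 27. Over all 11517 genes 18.5% fell in Nutlin-3a, and the difference was called for 11.7%. The 64 were chosen by their DMSO values, which by itself favours larger effects in DMSO. A difference that was not called does not show equal effects, and the 27 include ASNS, at -1.98 ± 0.19 in DMSO and -1.09 ± 0.26 in Nutlin-3a. The 6 genes given next were chosen after seeing their values, for falls of similar size in the authors' deposited tables. B4GALT3, a galactosyltransferase, fell from 1491 to 477 normalized counts (-1.64 ± 0.11, and -1.73 ± 0.10 in Nutlin-3a). DLD, the dihydrolipoamide dehydrogenase shared by the 2-oxoacid dehydrogenases, fell from 4270.4 to 1744 (-1.29 ± 0.05, and -1.16 ± 0.05). CAPN1, the protease calpain 1, fell from 8671 to 3632 (-1.26 ± 0.06, and -1.06 ± 0.06). IRF2BP1, a corepressor, fell from 1692 to 739 (-1.20 ± 0.08, and -1.21 ± 0.08), and MPG, a DNA glycosylase, from 644 to 274 (-1.23 ± 0.12, and -1.47 ± 0.12). PFKM, a phosphofructokinase, fell from 4868 to 2296 (-1.08 ± 0.06, and -1.24 ± 0.06). None of these 6 had a called difference. Of these, B4GALT3, DLD, MPG, PFKM and CAPN1 overlap a gene on the other strand that was also at 50 or more, and in each case that gene's log2 fold change was between -0.30 and 0.50. CSTA and FAM167A, the other 2 of the 12 largest falls, fell more in DMSO: CSTA, the protease inhibitor cystatin A, from 401 to 106 (-1.91 ± 0.12, and -0.74 ± 0.12 in Nutlin-3a), and FAM167A, a gene of unsettled function, from 288 to 99.7 (-1.53 ± 0.15, and -0.62 ± 0.15).

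Genes of growth and division fell by smaller amounts in large numbers. Of 45 genes of the G1/S transition and DNA replication 31 fell, 2 rose and 12 were not called, with a median log2 fold change of -0.26 in the authors' deposited table. UNG, the uracil-DNA glycosylase, fell from 5296 to 2817 normalized counts (-0.91 ± 0.05), the licensing factor CDT1 from 4991 to 3007 (-0.73 ± 0.07) and E2F1, an activator of this programme, from 1450.5 to 1063 (-0.45 ± 0.12), while TYMS (0.15 ± 0.06), an enzyme of nucleotide supply, rose. Of 50 G2/M genes 35 fell, 0 rose and 15 were not called, with a median of -0.28. FOXM1, the factor that activates them, fell from 4823 to 3109 (-0.63 ± 0.06), and the kinesins KIF18B and KIF2C fell, with -0.58 ± 0.10 and -0.55 ± 0.07. In Nutlin-3a the G2/M median was -1.12 and the G1/S median -0.25. The effect on G2/M genes was called higher in DMSO for 34 of the 50 and lower for 1, beside 590 and 753 of all 11517 genes. Of 21 cyclins, CDKs, CDK inhibitors and E2F factors 13 fell, 3 rose and 5 were not called. CDKN1A, CCND3 (0.52 ± 0.07) and E2F5 (0.48 ± 0.10) rose, and the inhibitors CDKN1B (-0.30 ± 0.06), CDKN2B (-0.50 ± 0.12) and CDKN1C (-0.54 ± 0.13) fell with the kinase CDK6 (-0.55 ± 0.12).

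MYC fell from 8692 to 6419.6 normalized counts (-0.44 ± 0.07). Of 12 genes of the MYC, MAX and MXD network 6 fell, 0 rose and 6 were not called, with a median log2 fold change of -0.23 in the authors' deposited table, and MAX, the partner of MYC, was not called (-0.06 ± 0.06). Of 29 AP-1 and immediate early genes 17 fell, 2 rose and 10 were not called, with a median of -0.31. EGR1, a growth factor-induced zinc finger factor, fell from 943 to 444 (-1.09 ± 0.09). DUSP6, a phosphatase of ERK, fell from 3784 to 2056 (-0.88 ± 0.05), and SPRY4, a feedback inhibitor of receptor tyrosine kinase signalling, from 2494 to 1227 (-1.02 ± 0.06). JUN rose from 519 to 799 (0.62 ± 0.08), and FOSL2, a partner in AP-1 dimers, by 0.47 ± 0.08. Of 24 NRF2 and iron genes 11 fell, 1 rose and 12 were not called, with a median of -0.19. The quinone reductase NQO1 fell from 13345 to 8593 (-0.64 ± 0.06) and GCLC, of glutathione synthesis, from 2424 to 1692 (-0.52 ± 0.05). NFE2L2, which encodes NRF2, fell from 3723 to 2887 (-0.37 ± 0.05), and OSGIN1 rose (0.36 ± 0.10).

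In contrast, p53 targets rose with siRFX7 in these cells, which had received no Nutlin-3a. Of 51 listed genes 48 were at the level required, and 33 rose (68.8%), 4 fell and 11 were not called, with a median log2 fold change of 0.57 in the authors' deposited table, beside 18.5% rising and -0.03 over all genes. CDKN1A, the inhibitor p21, rose from 5493 to 13389 normalized counts (1.29 ± 0.10, DESeq2 adjusted p = 5.01e-39), and MDM2, the ligase that degrades p53, from 4705 to 6591 (0.49 ± 0.06). Of 12 apoptosis genes 8 rose and 0 fell, among them BAX from 1889 to 2804 (0.57 ± 0.09), BBC3 (PUMA) from 659.5 to 998 (0.60 ± 0.09) and the decoy receptor TNFRSF10C from 53.1 to 167 (1.65 ± 0.15). PMAIP1 (NOXA) was not called (1608 to 1598). Of 23 genes of repair and metabolism 17 rose, with SPATA18, a mitochondrial quality protein, from 15.0 to 77.2 (2.36 ± 0.26), PTCHD4 from 25.4 to 121 (2.25 ± 0.22), TP53I3 from 400.2 to 1194 (1.58 ± 0.12) and SESN1, a restrainer of mTORC1, from 476 to 1196 (1.33 ± 0.07).

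The 4 p53 targets that fell were GDF15 and SESN2, which are on the ATF4 list too, COP1, a ubiquitin ligase (-0.35 ± 0.06), and GTSE1, a protein of G2 (-0.29 ± 0.06). In Nutlin-3a the authors' deposited table gave the 48 genes a median siRFX7 effect of 0.15. The effect was called higher in DMSO for 30 and lower for 5, beside 590 and 753 of all 11517 genes. CDKN1A stood at 5493 normalized counts with siControl and 13389 with siRFX7 in DMSO, and at 121149 and 154897 in Nutlin-3a. MDM2 stood at 4705 normalized counts with siControl and 6591 with siRFX7 in DMSO, and at 74982 and 64906 in Nutlin-3a. Both genes with siRFX7 in DMSO thus stayed far below their level with Nutlin-3a.

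The 12 largest rises included many genes low in both DMSO groups. For 7 of the 12 the mean of both DMSO groups was under 50, so they reached the level only through the Nutlin-3a groups: COL5A1, CLCA2, TRIM29, FER1L6, FAM92B, SPATA18 and SCN2A. The same held for 36 of the 159 rises of 1 or more, for 1 of the 64 such falls and for 122 of all 11517 genes. Among all calls it held for 57 of the 2134 rises and 3 of the 2677 falls. Sums over the 3 libraries of a group were taken as 3 times the solved group mean, rounded. For COL5A1, a fibrillar collagen chain, they were 1 normalized count with siControl and 39 with siRFX7. Their ratio of 39 had a 95% counting interval of 6.60 to 1579. For CLCA2, a calcium-activated chloride channel regulator and p53 target, they were 2 and 16, a ratio of 8 with an interval of 1.88 to 71.7. These intervals leave out the spread between replicates. CPLX2, a complexin of vesicle fusion, rose from 15.7 to 156 (3.32 ± 0.26), TRIM29, a ubiquitin ligase of squamous epithelia, from 10.7 to 75.3 (2.82 ± 0.29), and RCAN2, a calcineurin inhibitor, from 14.4 to 96.3 (2.74 ± 0.30). The metallocarboxypeptidase CPA4 (chromosome 7, 130293134 to 130324180, plus strand) was the most precisely measured of the 12, rising from 213 to 1463 (2.78 ± 0.08, DESeq2 adjusted p = 1.68e-271). INPP5D, the phosphatase SHIP1, rose from 35.7 to 220.0 (2.62 ± 0.18) and the sodium channel SCN2A from 9.69 to 47.2 (2.29 ± 0.32). FER1L6 (2.33 to 16.1) and FAM92B (5.01 to 33.5) were at low counts in both groups.

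Of the 159 rises of 1 or more, 122 were also called higher in Nutlin-3a, with a median log2 fold change of 0.73 there against 1.29 in DMSO, in the authors' deposited tables. The 159 were chosen by their DMSO values, so a larger median in DMSO follows from that choice. As stated above, 36 of them reached the level only through the Nutlin-3a groups. Over all 11517 genes 21.5% were called higher in Nutlin-3a. DNER, a Notch ligand, rose by like amounts in both, from 91.8 to 318 normalized counts (1.79 ± 0.14) in DMSO and by 1.89 ± 0.15 in Nutlin-3a. FOLR1, a folate receptor, rose from 56.0 to 194 (1.79 ± 0.18, and 1.48 ± 0.18).

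Epidermal and squamous genes were among the rises. Of 42 listed, 18 were at the level required, and 11 rose, 3 fell and 4 were not called, with a median log2 fold change of 0.48 in the authors' deposited table. CLCA2 and TRIM29, counted among these rises, reached the level only through the Nutlin-3a groups, as stated above. Besides TRIM29, LAMA3, a chain of laminin 332, rose from 149.9 to 509 normalized counts (1.76 ± 0.13), with its partner chain LAMB3 (0.55 ± 0.06), and KRT80 rose from 391 to 814 (1.06 ± 0.11). CSTA, KLK10 (-0.31 ± 0.12) and DSC2 (-0.21 ± 0.07) fell, with the last 2 not called at equal totals (adjusted p = 0.087 and 0.071). Of 26 interferon response genes at the level required, 18 rose, 2 fell and 6 were not called, with a median of 0.41 in DMSO and 0.35 in Nutlin-3a. TLR3, a sensor of double-stranded RNA, rose from 45.7 to 115 (1.33 ± 0.17), PARP9 from 227 to 508 (1.16 ± 0.11) and IFI6 from 180.1 to 361. IRF1 was not called (-0.05 ± 0.10), and STAT2 (-0.23 ± 0.09) and IFIT5 (-0.17 ± 0.07) fell, calls that equal totals ended (adjusted p = 0.13 and 0.21). PARP9 and DTX3L overlap on opposite strands, and both rose.

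Of 16 genes of MHC class I presentation 5 rose, 2 fell and 9 were not called, with a median log2 fold change of 0.13 in the authors' deposited table. TAPBP, the loading chaperone tapasin, rose from 1552 to 2219 normalized counts (0.52 ± 0.06), HLA-B by 0.36 ± 0.08, and HLA-F (-0.60 ± 0.13) and HLA-E (-0.33 ± 0.05) fell. HLA-DRB1 was the 1 of 3 class II genes that rose, from 19.0 to 131 (2.79 ± 0.25). HLA genes share sequence with near copies, so their single values are uncertain. Of 17 WNT ligands and feedback genes 9 rose, 3 fell and 5 were not called, with a median of 0.24. AXIN2, a feedback inhibitor and target of WNT signalling, rose from 664 to 1229.6 (0.89 ± 0.09), WNT7A from 7.35 to 23.4 (1.67 ± 0.41) and WNT10A from 34.4 to 79.3, while WNT3 (-0.52 ± 0.12), RNF43 (-0.48 ± 0.10) and NKD2 (-0.47 ± 0.09) fell. WNT7A was under 50 in both DMSO groups and reached the level only through the Nutlin-3a groups. Of 40 listed histone genes 8 were at the level required, and 6 rose and 0 fell, with a median of 0.77 in DMSO and 0.05 in Nutlin-3a. Some of the 6 that rose had a mean under 50 over both DMSO groups and reached the level only through the Nutlin-3a groups. Without the level limit the histone median in DMSO was smaller, as given in the closing section. HIST1H2AC rose from 81.8 to 231 (1.50 ± 0.14) and HIST1H2BD from 82.5 to 151 (0.87 ± 0.14). Most histone mRNAs lack a poly(A) tail, and the libraries were poly(A) selected.

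RNA of the mitochondrial genome, a group chosen after its values were seen, rose with siRFX7. Of 13 protein-coding genes 11 rose and 0 fell, with a median deposited log2 fold change of 0.88 in DMSO and 1.26 in the Nutlin-3a arm, and no difference between the treatments was called. MT-CO1, a core chain of cytochrome oxidase, rose from 22049.9 to 42804 normalized counts (0.96 ± 0.18) and MT-ND4L, of complex I, from 2091 to 4299.8 (1.04 ± 0.13). The SE ran from 0.10 to 0.29, next to a median SE of 0.061 in the part of highest mean counts. MT-ND6, whose message lies on the opposite strand to the others, was not called (-0.38 ± 0.28), nor was MT-ND2 (0.40 ± 0.29). The 13 genes held 0.450% of normalized counts with siControl and 0.854% with siRFX7. Of 78 nuclear genes of oxidative phosphorylation subunits 21 rose (26.9%), 7 fell (8.97%) and 50 were not called, with a median of 0.14. Over all 11517 genes 18.5% rose and 23.2% fell, with a median of -0.03. ATP5F1C, of the ATP synthase, fell most, from 5012 to 2604 (-0.94 ± 0.05).

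**Figure D4:**
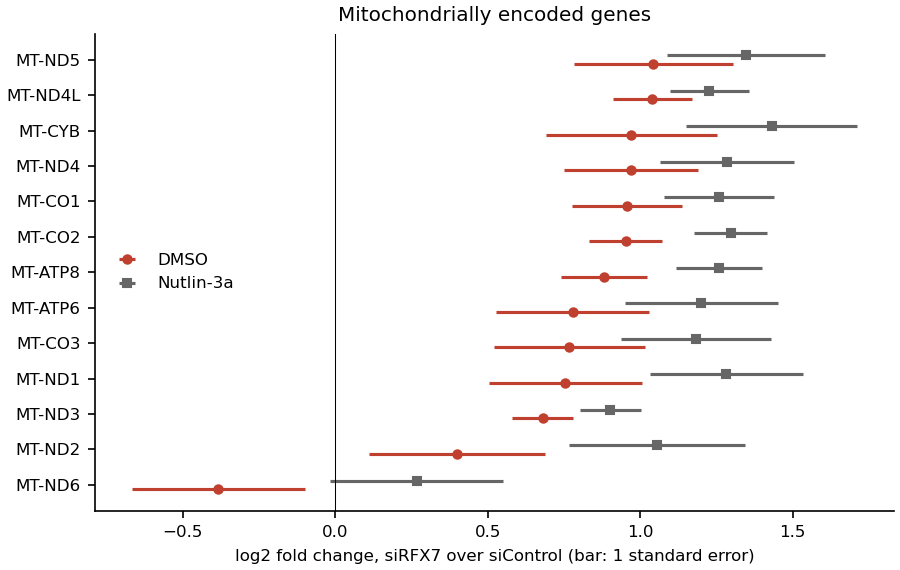
Log2 fold changes with siRFX7 for the 13 mitochondrially encoded genes in DMSO (red) and Nutlin-3a (grey), with bars of 1 SE. All but MT-ND6 lie above 0 in DMSO, and the bars of MT-CYB, MT-ND2 and MT-ND6 are the widest in DMSO.

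Other gene groups showed calls in both directions. Of 25 genes of the unfolded protein response 10 fell, 3 rose and 12 were not called, with a median log2 fold change of -0.10 in the authors' deposited table. XBP1, its central factor, fell from 2738 to 1928 normalized counts (-0.51 ± 0.07) and EDEM1 too (-0.54 ± 0.10), while HSPA5, the chaperone BiP, fell slightly (-0.27 ± 0.04) and PDIA4 (0.20 ± 0.04), EDEM2 (0.21 ± 0.08) and CRELD2 (0.31 ± 0.12) rose. For 13 of the 25 the effect was called more negative in DMSO than in Nutlin-3a, beside 753 of all 11517 genes. Of 39 genes of sterol and fatty acid synthesis 11 fell, 5 rose and 23 were not called. SREBF2, the sterol-regulated factor, fell (-0.37 ± 0.05) and SREBF1 was not called (0.07 ± 0.05). Of 33 genes of glycolysis and hypoxia 11 fell, 6 rose and 16 were not called, with HKDC1, a hexokinase-like enzyme, falling from 118 to 64.9 (-0.86 ± 0.21). Of 21 brakes of mTOR and PI3 kinase signalling 8 fell and 5 rose, with DDIT4 and SESN1 at the ends.

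Of 14 BCL2 family genes 5 rose, 4 fell and 5 were not called. Of the 10 pro-apoptotic members 5 rose, 2 fell and 3 were not called, and of the 4 anti-apoptotic members 0 rose and 2 fell. BIK, a pro-apoptotic member, rose (0.73 ± 0.09), HRK, another, fell (-0.86 ± 0.14), and the anti-apoptotic BCL2 fell (-0.38 ± 0.14, adjusted p = 0.060 at equal totals). Among 5 BTG and TOB genes, BTG2 and TOB1 rose and TOB2 (-0.26 ± 0.06) and BTG1 (-0.22 ± 0.08) fell, that of BTG1 not called at equal totals (adjusted p = 0.15). Of 22 secreted factors 8 rose and 8 fell, with LIF, a cytokine of the IL-6 family, falling from 1324 to 602 normalized counts (-1.14 ± 0.08) and IL18 rising from 641 to 1364 (1.09 ± 0.10). Of 13 genes of RNA interference, read because an siRNA was used in both groups, 5 fell, 3 rose and 5 were not called in the authors' deposited table. DROSHA fell from 1559.5 to 1118 (-0.48 ± 0.08) and DICER1 from 2001 to 1498 (-0.42 ± 0.10). Of 83 cytosolic ribosomal protein genes 17 fell, 3 rose and 63 were not called, with a median of -0.03 that turned to 0.02 at equal group totals, and RPL32 fell most (-0.60 ± 0.06). RPS27L, the 1 strong rise in that group (0.94 ± 0.07), is also a p53 target. Near-identical pseudogenes make single ribosomal protein values uncertain.

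The difference between the siRFX7 effects in DMSO and in Nutlin-3a was tested for each gene with a two-sided z test on the deposited fold changes and SE, adjusted by Benjamini-Hochberg over 19393 genes. These 2 contrasts share no library. Of the 11517 genes 1343 had a called difference (11.7%), 753 with the effect lower in DMSO and 590 with it higher. Across the 11517 genes the effects had a Pearson correlation of 0.66 as a description, without a test, since genes are not independent and all libraries went through 1 fit. In the authors' deposited Nutlin-3a table, 1413 of the 2677 falls in DMSO were also called lower and 76 higher, and of the 2134 rises 1389 were also called higher and 39 lower there. Among all 11517 genes 18.5% were called lower and 21.5% higher in Nutlin-3a.

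Of the 5 largest differences towards lower in DMSO, CHAC1, SLC1A4 and DDIT3 are on the ATF4-linked lists. That of CHAC1 was -2.49 ± 0.18 (z test on the DESeq2 estimates, adjusted p = 8.56e-42), of SLC1A4 -2.03 ± 0.22, of DDIT3 -1.79 ± 0.15 and of FAM129A -1.69 ± 0.19. HKDC1 differed by -2.25 ± 0.35. SLC1A4, DDIT3 and HKDC1 turned from a fall in DMSO to a rise in Nutlin-3a, where their log2 fold changes were 0.99 ± 0.19, 0.48 ± 0.11 and 1.39 ± 0.27. From siControl to siRFX7 in Nutlin-3a, SLC1A4 went from 40.0 to 79.4 normalized counts, DDIT3 from 199 to 276 and HKDC1 from 22.3 to 58.5. The rises of SLC1A4 and HKDC1 thus began at low counts. In the other direction COL5A1, near 0 counts with siControl, differed by 4.11 ± 1.23, INPP5D by 2.40 ± 0.21, FER1L6 by 2.30 ± 0.65, BEST1 by 2.18 ± 0.66 and KRTAP2-3 by 2.14 ± 0.21. INPP5D was called in DMSO and not in Nutlin-3a, at 35.7 normalized counts with siControl and 220.0 with siRFX7 in DMSO, and at 597 and 695 in Nutlin-3a. KRTAP2-3, a hair keratin-associated protein, rose in DMSO (1.61 ± 0.18) and fell in Nutlin-3a (-0.53 ± 0.12). BEST1, an anion channel gene that overlaps the abundant ferritin gene FTH1 on the other strand, was not called in DMSO (0.99 ± 0.47).

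**Figure D5:**
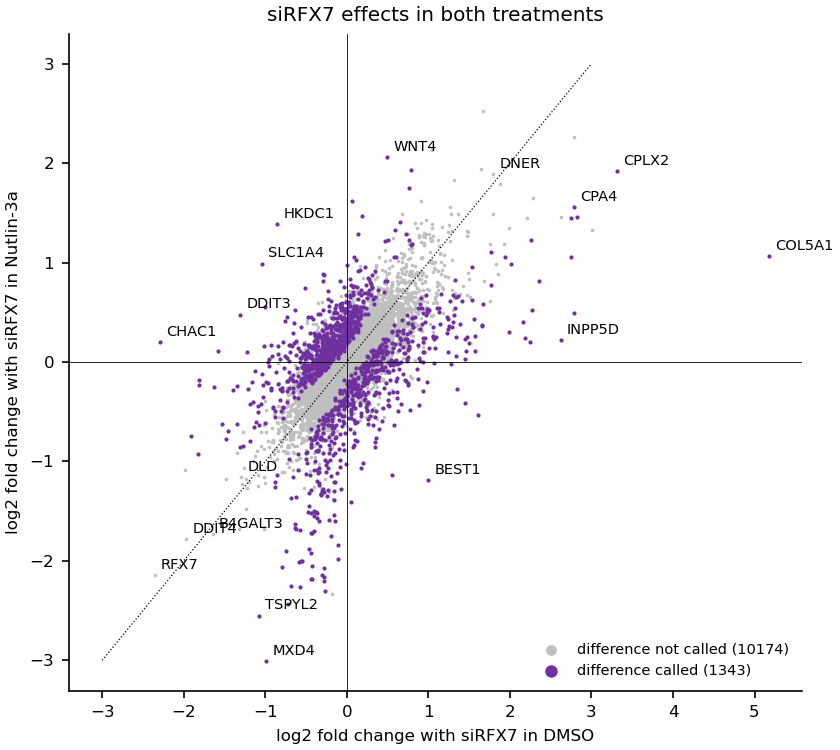
Log2 fold change with siRFX7 in Nutlin-3a against that in DMSO for the 11517 genes, with the 1343 of called difference in purple and the line of equal effect dotted. CHAC1, DDIT3, SLC1A4 and HKDC1 lie to the left above 0, MXD4 and TSPYL2 far below, and RFX7, DDIT4, B4GALT3 and DLD near the line.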

How the data were processed

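RNA of 12 HCT116 libraries, 3 in each of 4 groups, had been sequenced, and the authors' deposited result tables of 4 comparisons were used. Per the submitters' processing notes the tools included bcl2fastq 2.20.0.422, Trimmomatic 0.39, cutadapt 2.10, FastQC 0.11.9, SAMtools 1.10, Picard, featureCounts 1.6.5 and DESeq2 1.20.0, with reads on hg38. The aligner, the annotation and the strand setting are not given in the sources used here. Per the file headers, the deposited tables hold a mean count signal scaled by size factors (baseMean), a log2 fold change with its SE, the Wald score (stat), and a p-value with its Benjamini-Hochberg adjusted value. The authors' 4 tables closed on one another to 1.27e-14 on the log2 scale, as they would from 1 fit over all 12 libraries, and adjusted values could be recomputed from the deposited p-values.

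Genes with baseMean of 50 or more and the type protein_coding were kept. All 11517 identifiers were found in GENCODE 29, 11497 with the same symbol. Group means were solved from baseMean and the fold changes of the 4 groups. Totals of these means were 26957653 with siControl and 25915992 with siRFX7 in DMSO, which are scaled values and not read depth, and the median SE was 0.085. The difference between treatments used a two-sided z test that takes the SE as known, checked on simulated data. Replicates were not averaged or paired here, and no value per library was used. Python 3.11.15, pandas 2.3.3, numpy 2.4.6, scipy 1.17.1 and matplotlib 3.10.9 were used.

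Genes and gene lists were chosen with earlier results of these data known. Named are RFX7, the 12 largest falls and rises, up to 4 members of each list by size with members called against the list's median, the 5 largest differences between treatments in each direction, regulators of the lists, and genes next to the level limit. Other named genes, such as further members of a pathway, were chosen after their values were seen. A few genes that the rule names are not reported here. Lists are described by counts and medians, without a test. Alternatives were other adjustment sets, thresholds, level limits, gene types and scalings. Genes of other types were left out of the main set. Among them 62 processed pseudogenes rose and 237 fell of 1451, and 40 antisense genes rose and 17 fell of 194.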

Additional observations from a re-analysis of the deposited data

Results flagged for a closer look

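The siRFX7 effect differed between DMSO and Nutlin-3a for 1343 of 11517 genes by the z test of the difference. Differences below are DMSO minus Nutlin-3a on the log2 scale, for genes named in the text that passed it. Among the largest falls they were -2.49 for CHAC1, -1.69 for FAM129A, -1.63 for TRIB3, -1.59 for PCK2 and -1.38 for SLC7A11. CSTA differed by -1.17, FAM167A by -0.91 and UPP1 by -0.90. HKDC1 at -2.25, SLC1A4 at -2.03 and DDIT3 at -1.79 fell in DMSO and rose in Nutlin-3a. Among the largest rises the differences were 4.11 for COL5A1, 2.40 for INPP5D, 2.30 for FER1L6, 1.69 for FAM92B and 1.55 for SPATA18. Of these, COL5A1, FER1L6, FAM92B and SPATA18 had a mean under 50 over both DMSO groups, and COL5A1 summed to 1 normalized count over the 3 siControl libraries in DMSO, with an SE of 1.23 on its difference, so its size is poorly fixed. CPLX2 differed by 1.40, TRIM29 by 1.36, RCAN2 by 1.30 and CPA4 by 1.22. BEST1 differed by 2.18 and KRTAP2-3 by 2.14.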

How the results depend on the processing

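With a least absolute log2 fold change of 0.58 the genes called went from 4811 to 909, of which 572 rose and 337 fell. Those with a called difference between treatments went from 1343 to 423 with a least difference of 0.58, 263 higher and 160 lower in DMSO. At equal group totals 4673 genes were called and at centring on the median 4740, of which 2412 rose and 2328 fell. An adjusted p below 0.01 left 3672, and adjustment over these genes alone gave 5131. At equal totals the median log2 fold change was -0.33 for amino acid synthesis and -0.35 for cytosolic synthetases, and it turned sign for mitochondrial synthetases, glycolysis and hypoxia (0.04), BTG and TOB genes (0.04), secreted factors (0.06) and ribosomal proteins. Over all listed genes without a level limit the medians were 1.43 for MHC class II, 0.36 for markers of other cell types and 0.23 for histone genes. Past 0.58 the shares of promoters of genes that fell were 5.90% with TGATGNAA, 3.07% with TGATGCAA and 0% with GTTGCC followed by ATGG, and 3.96% of promoters of genes that rose held the pair of TTTC. The cause was not tested. Of 190 genes named, 7 lost their call at equal totals and 4 at centring, and ABAT gained one under both.

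No paired analysis was possible because the deposited tables carry no columns for single libraries, and for the same reason leaving out each replicate in turn was not run. Depth per library is unknown, so precision rests on the deposited SE, and genes near 50 mean normalized counts had the widest. Calls that rest on 1 library could not be seen.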
